A study of Homo sapiens with 6 samples.

Results

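The levels of 10 genes of the BCL2 family were compared between pLUM and pLB cells, by every probe on the array that carried the name of such a gene. The 4 anti-apoptotic members were BCL2, BCL2L1 (BCL-XL), MCL1 and BCL2A1 (A1/BFL-1), the 2 effectors were BAX and BAK1 (BAK), and the 4 BH3-only members were BCL2L11 (BIM), PMAIP1 (NOXA), BID and BIK. These 10 genes, of 25940 names on the array, had 16 of its 34127 gene probes. Of the 16 probes, 14 had a signal well above background on 3 or more of the 6 arrays and were tested, so that every gene had a tested probe.

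pLUM (pure luminal) and pLB (pure luminobasal) were both sorted from xenografts of T47Dco, a human luminal breast cancer line, grown in ovariectomized immunodeficient NSG mice. pLUM was made from a tumor of an estradiol (E)-treated mouse, kept in E and selected as CLD3+ CD49f- cells. pLB came from a tumor of a mouse given E and progesterone, was cultured under E withdrawal (EWD) and selected as CLD3- CD49f+ cells. RNA came from 3 sorts of pLUM cells after 72 h in 1 nM E and from 3 sorts of pLB cells under EWD, each measured on 1 Agilent array with a single dye. Line, tumor of origin and hormone therefore coincide and cannot be told apart, and the sources used here do not state which CK5 fraction of each sort was hybridized. In RNA of sorted populations, fewer cells with a transcript and less RNA per cell cannot be told apart either. Nothing states that the sorts came from separate cultures, so the p-values measure the spread between sorts.

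The BCL2 family decides whether the outer mitochondrial membrane is opened in apoptosis. BAX and BAK1 form the pores through which cytochrome c leaves, the anti-apoptotic members bind and hold the effectors and the BH3-only proteins, and BH3-only proteins either engage the effectors or occupy their inhibitors. In breast epithelium BCL2 is known as an estrogen-responsive gene and is used as a marker of luminal disease, and inhibitors of BCL2, BCL-XL and MCL1 have been developed as drugs.

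All values are log2 of the deposited intensity relative to the 75th percentile of the same array, so that 0 marks a probe at that percentile, and a difference is pLB minus pLUM. A probe was called if it differed at least 2-fold with a limma adjusted p under 0.05, adjusted over all 23103 tested probes. The lines differed widely. Of all tested probes, 21.9% were called higher and 23.7% lower in pLB, and for 68.2% the arrays of the lines did not overlap. Between a pLUM and a pLB array, r across probes was 0.780 to 0.806, against 0.972 to 0.991 within a line. As a check of the labels only, 16 line markers were read that the study had already reported for these lines. The lines were sorted on CLDN3 and on ITGA6 (CD49f), so the directions of the markers were known beforehand. Of these 16 markers 15 were called in the direction that their line's label implies, including CLDN3, 103.9-fold lower in pLB, and EGFR, 179.6-fold higher. KRT18 was the exception, at 1.54-fold lower. KRT8 was counted by its brightest probe, but of its 3 tested probes 2 were called lower and 1 higher. With the probes of a gene averaged, 14 markers were called in the labelled direction.

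Among the members, 5 of 14 tested probes were called higher in pLB and 0 lower, which as a share of few probes has to be read against the 21.9% and 23.7% of all probes. By gene, represented by its brightest tested probe, BCL2, PMAIP1, BID and BAX were called higher and none was called lower, against 22.7% and 23% of 17668 tested genes. The BCL2 probe entered these counts through its pLB arrays alone, as it was well above background on 0 pLUM arrays. Where a signal well above background was required on all 6 arrays, 4 member probes and 3 member genes were called higher. The median fitted difference of the 10 genes was 0.30 and that of all genes 0.03 on the log2 scale. Their median absolute difference, 0.69, was below that of all genes, 0.92. At a limma adjusted p under 0.05 with no fold threshold, 7 member probes were higher and 1, BCL2A1 (a), was lower. The methods' t-test with the 2-fold threshold called 5 member probes higher and 0 lower. The arrays of the lines did not overlap for 10 of the 14 member probes, the BCL2 probe among them, beside 68.2% of all tested probes.

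**Figure D1:**
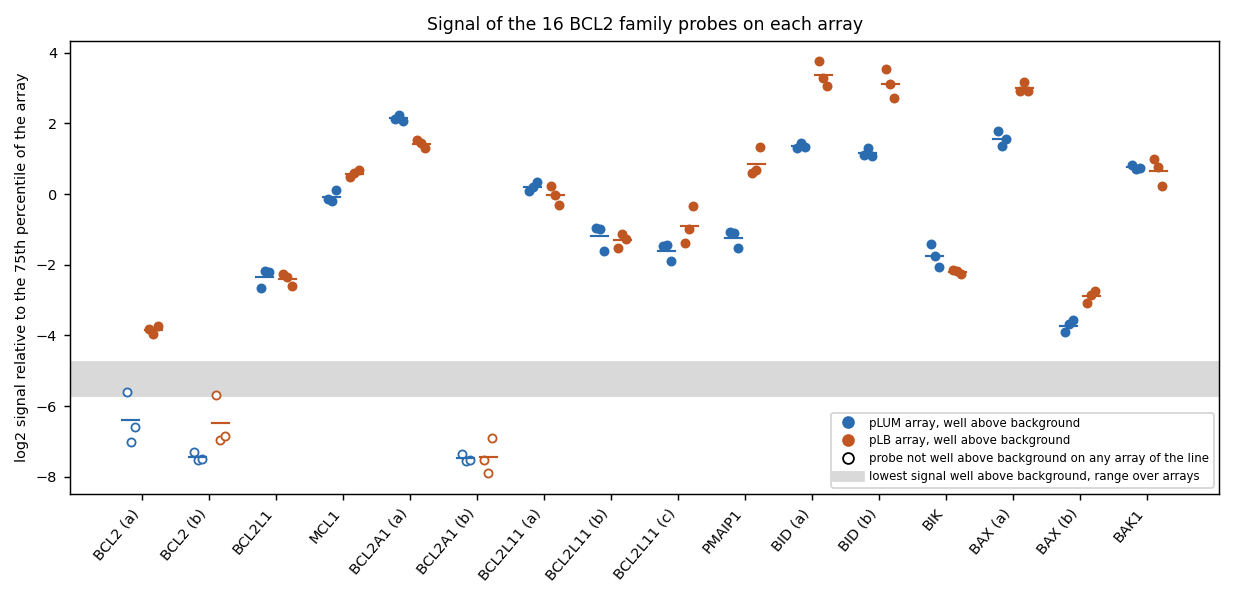
Signal of the 16 BCL2 family probes on each array, as log2 of the intensity relative to the array's 75th percentile (y axis), for 3 pLUM (blue) and 3 pLB (orange) arrays, with short lines at the means. Open circles mark probes well above background on no array of that line and the grey band spans the lowest signals well above background, from -5.70 to -4.75; BCL2 (a) lies below or within the band in pLUM, with replicate 1 at -5.60, and above it in pLB, and levels of different probes cannot be compared.

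Of the anti-apoptotic members, BCL2 was the only one called. BCL2 blocks both effectors and several BH3-only proteins. Its tested probe, A_33_P3355185 or BCL2 (a), matches chr18:60985401-60985460 on the minus strand (hg19). This oligo is shown because the call rests on it alone:
BCL2 (a): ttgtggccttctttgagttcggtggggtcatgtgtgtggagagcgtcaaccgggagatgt
BCL2 (a) read -5.60, -7.00 and -6.58 in pLUM and -3.82, -3.97 and -3.74 in pLB, here and throughout in the order of the replicate numbers. It was well above background on 0 of 3 pLUM and 3 of 3 pLB arrays, and the lines did not overlap. In intensity, the pLUM spots were at 9.8, 4.4 and 5.9 and the pLB spots at 61.8, 44.4 and 33.7, against a 75th percentile of 450.0 to 872.7. BCL2 (a) was therefore at least 2.90-fold higher in pLB, where the dim line is set to the lowest signal well above background, and the limma adjusted p was 0.000524. Its fitted log2 difference was 2.55, with a 95% interval of 1.74 to 3.36.

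The BCL2 call depended on how dim spots were treated. The normexp background correction was run with an offset of 50, near the pLB intensities of BCL2 (a), which in itself draws dim values together. With it the fitted difference was 0.0044 and the limma adjusted p was 0.994. With dim signals raised to a floor the difference was 1.54 and called. BCL2 had no value where a probe had to be well above background on all 6 arrays. The other BCL2 probe, A_23_P352266 at chr18:60790723-60790782, was well above background on 0 arrays and was not tested. It read -7.30, -7.52 and -7.49 in pLUM and -5.67, -6.95 and -6.84 in pLB.

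MCL1, a short-lived inhibitor that holds BAK1 and binds PMAIP1, was somewhat higher in pLB without reaching 2-fold. Its probe at chr1:150547622-150547681 read -0.15, -0.20 and 0.12 in pLUM and 0.48, 0.59 and 0.67 in pLB. Every pLB array lay above every pLUM array. The log2 difference was 0.66 ± 0.17 (SE, n = 3 arrays a line), or 1.58-fold, and the limma adjusted p was 0.0111.

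BCL2L1, which encodes BCL-XL and holds both BAX and BAK1, showed no detectable difference. Its probe at chr20:30253324-30253383 read -2.67, -2.18 and -2.22 in pLUM and -2.27, -2.34 and -2.60 in pLB, and the lines overlapped. The fitted difference was -0.05, with a 95% interval of -0.52 to 0.42, so that a change of 2-fold lies outside it. With spike-in scaling it was 0.21.

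BCL2A1, an inhibitor best known from blood cells, had a lower value in pLB without reaching 2-fold. Probe A_23_P321703, BCL2A1 (a), read 2.13, 2.22 and 2.07 in pLUM and 1.54, 1.43 and 1.31 in pLB. The lines did not overlap, and the log2 difference was -0.72 ± 0.16 (SE), or 1.64-fold lower, with a limma adjusted p of 0.0053. 

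The 2 probes named for BCL2A1 gave different pictures. BCL2A1 (b), A_23_P152002 at chr15:80263136-80263195, was well above background on 0 of 6 arrays. It read -7.36, -7.55 and -7.53 in pLUM and -7.54, -7.89 and -6.89 in pLB. Both RefSeq transcripts listed for BCL2A1 (b) matched BCL2A1 in the table used here (GRCh38.p14). BCL2A1 (a) lists 4 transcripts, of which 1 matched BCL2A1 and 3 matched no entry, and its stated position, chr15:80253220-80253252, covers 33 of its 60 bases. Which transcript gave the bright signal was not tested. The oligo of the dim probe is shown because it lies in full at its stated position:
BCL2A1 (b): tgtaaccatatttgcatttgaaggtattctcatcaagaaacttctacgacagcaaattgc

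Since BCL2 and BCL2A1 are also expressed by leukocytes, markers of other cells were examined. Of 8 leukocyte markers 6 were tested and 2 were called, CD79A and CD68, both higher in pLB. Their summed level, in multiples of the 75th percentile, was 1.31 to 2.00 in pLUM and 15.5 to 34.4 in pLB. CD79A was 18.4-fold higher and CD68 2.87-fold higher in pLB, CD3E was well above background on at most 2 arrays, and LYZ was not among the array's names. Of 8 fibroblast and endothelial markers 4 were tested and 2 were higher, with sums of 0.805 to 1.00 in pLUM and 0.836 to 1.25 in pLB. The higher genes were COL1A2, at least 11.5-fold, and VWF, at least 1.80-fold, both well above background on 0 pLUM arrays, whereas COL1A1 had a difference of -0.56 and was not called. PDGFRB, DCN, LUM and PECAM1 were above background on no array. The part of such markers in the BCL2 and BCL2A1 values was not tested.

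Of the effectors, BAX was called higher in pLB and BAK1 was not. BAX moves from the cytosol to mitochondria when activated. Probe A_23_P208706, BAX (a), at chr19:49464904-49464963, read 1.79, 1.36 and 1.56 in pLUM and 2.92, 3.16 and 2.91 in pLB. The lines lay apart by more than the whole spread of either line. The difference was 1.43 (95% interval 1.00 to 1.85), or 2.69-fold, with a limma adjusted p of 0.000394.

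The other BAX probe, A_33_P3341144 or BAX (b) at chr19:49464454-49464513, was also higher in pLB on every array but was not called. It read -3.91, -3.67 and -3.57 in pLUM and -3.08, -2.85 and -2.75 in pLB. The difference was 0.83 (0.41 to 1.25), or 1.78-fold, with an adjusted p of 0.00511. Scaled to the spike-in controls it was 1.08 and called, whereas with normexp, whose offset weighs on dim probes such as this one, it was 0.03. The step from BAX (b) to BAX (a) within an array was 5.29 ± 0.36 in pLUM and 5.89 ± 0.20 in pLB (SD, n = 3), a difference of 0.60 that an exact two-sided permutation test did not separate (p = 0.2). With 3 arrays against 3 this test cannot go below 0.1.

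BAK1 resides on mitochondria, where MCL1 and BCL-XL hold it. Its probe at chr6:33540585-33540644 read 0.83, 0.71 and 0.72 in pLUM and 1.00, 0.76 and 0.23 in pLB. The pLB arrays lay on both sides of the pLUM arrays. The difference was -0.09, with an interval of -0.62 to 0.44 and a limma adjusted p of 0.740, and with spike-in scaling it was 0.16.

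**Figure D2:**
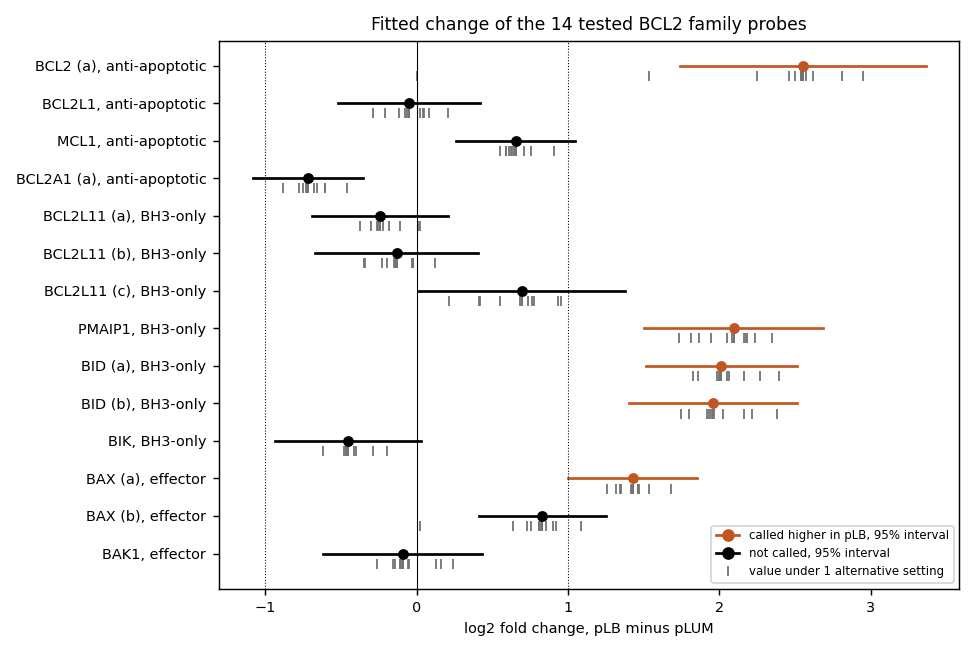
Fitted log2 difference, pLB minus pLUM (x axis), for the 14 tested probes with their role, with 95% intervals from limma; orange marks probes called higher, dotted lines mark 2-fold, and short ticks give the value under each alternative setting. The intervals of PMAIP1, BID (a) and BID (b) lie above 1 and their ticks between 1.73 and 2.40, whereas BCL2 (a) has a tick near 0 and BAX (b) one at 0.03.

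Among the BH3-only genes, PMAIP1 and BID were called higher in pLB, BIK was not, and the 3 probes of BCL2L11 were not. PMAIP1 encodes NOXA, a protein that binds MCL1 and BCL2A1. Its probe at chr18:57570691-57570750 read -1.07, -1.10 and -1.53 in pLUM and 0.58, 0.68 and 1.32 in pLB. All pLB arrays lay above the 75th percentile and all pLUM arrays below it. The difference was 2.09 (1.50 to 2.69), or 4.27-fold, and the limma adjusted p was 0.000293. When each array was left out in turn the difference ranged from 1.86 to 2.23.

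BID is cut by caspase-8 into a form that activates BAX and BAK1, and so connects death receptors to mitochondria. It had 2 probes that lie next to each other, at chr22:18218182-18218241 (A_24_P187948, BID (a)) and chr22:18218265-18218324 (A_33_P3227041, BID (b)). BID (a) read 1.29, 1.45 and 1.33 in pLUM and 3.75, 3.29 and 3.07 in pLB. BID (b) read 1.11, 1.29 and 1.08 in pLUM and 3.54, 3.10 and 2.71 in pLB. Both placed pLB replicate 1 highest and pLB replicate 3 lowest, and neither had an overlap between the lines. BID (a) was 4.04-fold higher in pLB, with a log2 difference of 2.01 (1.52 to 2.51) and a limma adjusted p of 0.000153. BID (b) was 3.89-fold higher, with an adjusted p of 0.000293. The step between both probes within an array was 0.20 ± 0.04 in pLUM and 0.25 ± 0.09 in pLB (SD, n = 3; exact permutation p = 0.5).

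BIK, a BH3-only protein of the endoplasmic reticulum, was not called. Its probe at chr22:43525495-43525554 read -1.41, -1.74 and -2.07 in pLUM and -2.14, -2.17 and -2.27 in pLB. The lines did not overlap, but pLUM replicate 3 and pLB replicate 1 lay close together. The difference was -0.45 (-0.94 to 0.03), with an adjusted p of 0.0903.

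BCL2L11 encodes BIM, which binds all anti-apoptotic members and can activate the effectors. Its 3 probes lie at separate places of the gene and none was called. BCL2L11 (a), A_24_P122921 at chr2:111925892-111925951, read 0.09, 0.21 and 0.33 in pLUM and 0.23, -0.04 and -0.30 in pLB. BCL2L11 (b), A_33_P3251932 at chr2:111886352-111886411, read -0.97, -0.98 and -1.60 in pLUM and -1.53, -1.13 and -1.28 in pLB. Both overlapped between the lines, with differences of -0.24 (adjusted p = 0.299 by limma) and -0.13 (adjusted p = 0.638). With spike-in scaling they were 0.01 and 0.12.

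BCL2L11 (c), A_33_P3398526 at chr2:111878705-111878764, differed more. It read -1.47, -1.45 and -1.90 in pLUM and -1.39, -0.99 and -0.35 in pLB, without overlap. The difference was 0.70 (0.01 to 1.38) with a limma adjusted p of 0.0704. Within an array, BCL2L11 (c) minus (b) was -0.43 ± 0.11 in pLUM and 0.40 ± 0.46 in pLB (SD, n = 3), without overlap, and the exact permutation p was 0.1, the smallest that this design allows. For (c) minus (a) the change was 0.94 (exact permutation p = 0.2), and for (a) minus (b) it was -0.11 (exact permutation p = 0.6). Over the 5 probe pairs of BAX, BID and BCL2L11, adjusted values ranged from 0.333 to 0.6.

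Slide was the batch that the files record. Slide 1 held the 3 pLUM arrays and pLB replicate 1, and slide 2 held pLB replicates 2 and 3, so that a comparison within a slide rests on a single pLB array. With slide as a block, the spread comes from the pLUM arrays and the 2 pLB arrays of slide 2, and the lone pLB array of slide 1 is assumed to vary like them. Within slide 1 the differences were 2.57 for BCL2 (a), 1.82 for PMAIP1, 2.40 for BID (a), 2.38 for BID (b) and 1.35 for BAX (a), all called under that assumption. BCL2L11 (c) came to 0.22 within slide 1, against 0.70 over all arrays. MCL1 came to 0.55 (adjusted p = 0.103 by limma) and BCL2A1 (a) to -0.60 (adjusted p = 0.0648).

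**Figure D3:**
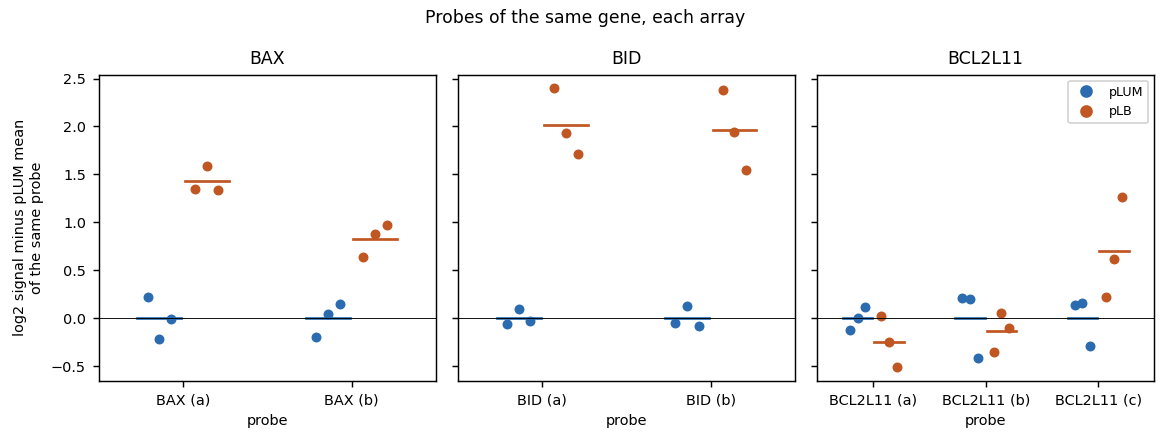
Signal of the probes of BAX, BID and BCL2L11 on each array, as log2 signal minus the pLUM mean of the same probe (y axis), for 3 pLUM (blue) and 3 pLB (orange) arrays with lines at the means. The pLB means lie at 1.43 and 0.83 for the BAX probes, at 2.01 and 1.96 for the BID probes, and at -0.24, -0.13 and 0.70 for BCL2L11 (a), (b) and (c).

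Promoter windows of 250 bases before the annotated start were read from RefSeq (GRCh38.p14). They were found for 8 of the 10 members, in 13 windows, and were searched on both strands for CACGTG (the E-box), GGGCGG (the GC box), TGANTCA (the AP-1 motif) and GGTCA (an estrogen receptor half-site). The windows of PMAIP1 and BAX, called genes with 1 window each, are shown with CACGTG and GGGCGG in capitals on either strand:
PMAIP1, chr18:59899746-59899995, plus strand: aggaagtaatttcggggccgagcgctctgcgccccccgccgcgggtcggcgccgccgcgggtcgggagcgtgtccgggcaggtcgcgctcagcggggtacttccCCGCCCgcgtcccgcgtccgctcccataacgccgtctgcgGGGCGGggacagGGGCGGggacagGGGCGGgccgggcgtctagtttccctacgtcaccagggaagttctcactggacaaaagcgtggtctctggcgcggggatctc
BAX, chr19:48954625-48954874, plus strand: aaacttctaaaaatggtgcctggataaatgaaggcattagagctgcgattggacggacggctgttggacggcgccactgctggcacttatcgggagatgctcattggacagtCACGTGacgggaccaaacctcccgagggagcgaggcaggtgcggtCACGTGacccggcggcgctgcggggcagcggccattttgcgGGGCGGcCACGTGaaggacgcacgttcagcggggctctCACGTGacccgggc
The PMAIP1 window held 4 GGGCGG, between 146 and 77 bases before the start, and the BAX window held 4 CACGTG, between 138 and 9 bases before it, with 1 GGGCGG. BAX also held 3 GGTCA, each of which overlaps a CACGTG. Windows of uncalled genes also held GGGCGG, with 3 in BCL2L11 and 2 in BAK1. The 5 windows of BID, a called gene, each held 0 to 4 GGGCGG, 0 to 1 CACGTG and 0 to 1 GGTCA. The BCL2 window held none of these motifs. Of 27305 genes, each by the first listed window of this length, 42.3% held GGGCGG, 6.49% CACGTG, 33.1% GGTCA and 6.6% TGANTCA. These matches describe letters in a window and say nothing about binding.

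Further genes of the pathway were taken from lists. Of 12 other BCL2 family genes 10 were tested, and 4 were called higher and 2 lower in pLB, with a median log2 difference of 0.60. For this and the following lists the shares over all tested genes were 22.7% higher and 23% lower. BNIP3, an atypical member known for mitophagy, was 5.29-fold higher in pLB with an adjusted p of 8.83e-05 by limma. HRK, a BH3-only protein, lay between -1.09 and -0.70 in pLUM and between 0.85 and 1.52 in pLB and was 4.05-fold higher. BOK, a relative of BAX, was 2.42-fold higher, and BCL2L13, a mitochondrial outer membrane protein, was 2.34-fold higher. BCL2L13 came to 0.997 on the log2 scale with normexp, just under 2-fold, and only 1 of its 3 tested probes was called. With the probes of a gene averaged, 3 genes of this list were called higher instead of 4.

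BMF, a BH3-only protein that can be held at the cytoskeleton, moved the other way. It read -2.10, -1.86 and -1.32 in pLUM and -5.30, -5.62 and -4.58 in pLB, where it was well above background on 0 arrays. It was therefore at least 10.6-fold lower in pLB (limma adjusted p = 9.39e-05), a bound that equals the fitted change because its dim signals lay above the lowest signal well above background of their arrays. With normexp the log2 difference of BMF was -1.83, still called. BCL2L2, which encodes the inhibitor BCL-w, was 2.09-fold lower, at 2.24, 2.15 and 1.92 in pLUM and 0.85, 0.96 and 1.31 in pLB. That call was lost with normexp (-0.95), with spike-in scaling (-0.81), without pLUM replicate 1 (-0.996) and without pLB replicate 1 (-0.97). BBC3 (PUMA), another BH3-only gene, had a difference of 0.41 (limma adjusted p = 0.114) and was not called. BAD was not called by its brightest probe (-0.20), though 1 of its 2 tested probes was called lower. BCL2L10 and BCL2L14 were above background on no array.

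Of 15 genes of the apoptosome and the caspases, 3 were called higher and 1 lower in pLB, against 22.7% and 23% of all genes, and the median was 0.00. DFFA, the chaperone and inhibitor of the apoptotic nuclease DFFB, was 3.61-fold higher, whereas DFFB itself was 2.91-fold lower. CASP8, the protease that cuts BID, was 3.57-fold higher, at -3.68, -4.10 and -3.23 in pLUM and -1.92, -1.47 and -2.12 in pLB. With normexp CASP8 came to 0.74 and was not called. ENDOG, a mitochondrial nuclease, was 2.47-fold higher. The initiator CASP9 had a difference of -0.69 and was not called. CYCS, which encodes cytochrome c, was not called by its brightest probe (-0.38), though 2 of its 3 tested probes were called higher. PARP1 was likewise counted as not called, with 1 of 3 tested probes called higher. With the probes of a gene averaged, 4 genes of this list were called higher instead of 3.

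Of the 7 IAP genes, whose products restrain caspases or act as ubiquitin ligases, 0 were called higher and 2 lower by limma, against 22.7% and 23% of all genes, with a median of -0.26. At a limma adjusted p under 0.05 with no fold threshold, 2 genes, BIRC3 (0.91) and BIRC5 (0.90), were higher, though BIRC3 came to -0.11 with normexp. NAIP, also a sensor of bacterial proteins, lay between 1.05 and 1.11 in pLUM and between -2.90 and -2.17 in pLB. It was 13.2-fold lower in pLB (limma adjusted p = 1.16e-05), though NAIP has near-identical genomic copies and the source of its signal is uncertain. BIRC2 (cIAP1) was 2.19-fold lower, a call that was lost with spike-in scaling (-0.87) and without pLB replicate 1 (-0.95). XIAP, an inhibitor of caspases, had a difference of -0.14 and was not called.

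Of 18 genes that regulate the family, 2 were called higher and 5 lower, against 22.7% and 23% of all genes, with a median of 0.08. Several of these act on MCL1 protein. The ubiquitin ligase TRIM17 was 6.77-fold lower in pLB and well above background on only 1 pLB array. With normexp TRIM17 came to -1.30, still called. BTRC, a subunit of another ligase, was 3.89-fold lower, and USP9X, a deubiquitinase that stabilizes MCL1, was 3.74-fold lower. GSK3B, a kinase that marks MCL1 for degradation, was 2.15-fold higher. VDAC1, the main channel of the outer mitochondrial membrane, was 3.80-fold higher, whereas VDAC3 was 2.83-fold lower. MAPK8 (JNK1), which phosphorylates BCL2 and BIM, was 3.04-fold lower.

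**Figure D4:**
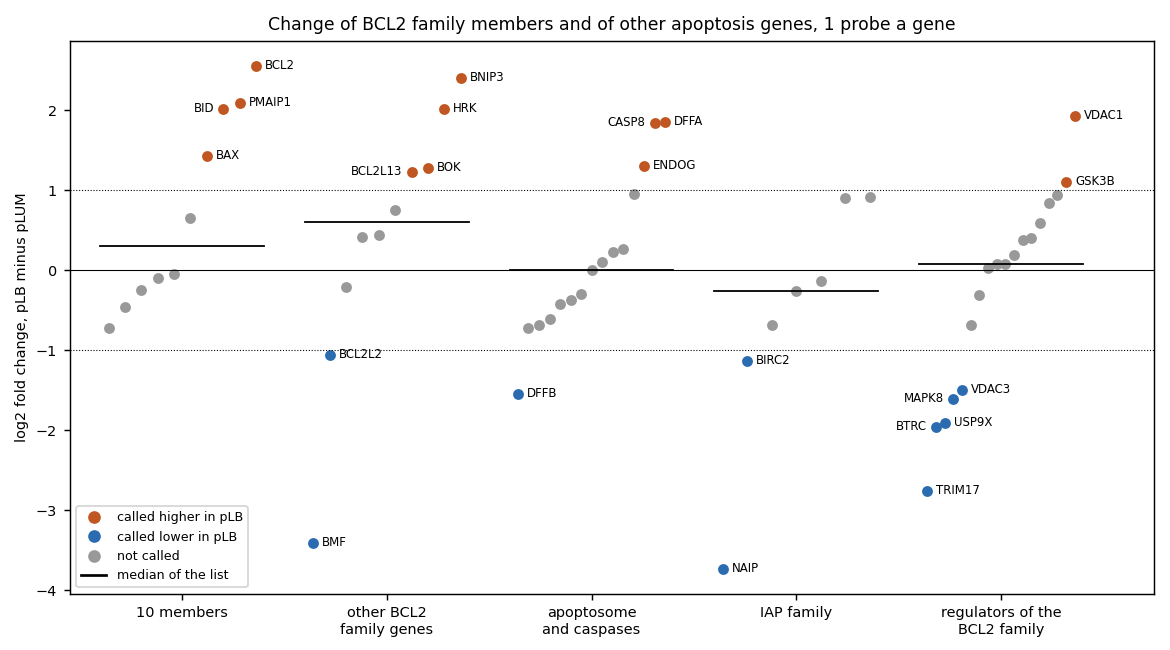
Fitted log2 difference, pLB minus pLUM (y axis), of the 10 members and of the tested genes in 4 lists of related genes, 1 probe a gene, each list in order of its values; bars are medians and dotted lines mark 2-fold. Called genes are named; the medians are 0.30, 0.60, 0.00, -0.26 and 0.08 from left to right, and BMF and NAIP are the lowest points.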

How the data were processed

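RNA of 3 pLUM and 3 pLB sorts was hybridized to Agilent arrays with a single dye. Per the file headers, the deposited tables were written by Agilent Feature Extraction 10.10.1.1 and give each spot's intensity in linear units, with background removed within an array and no normalization between arrays. The submitters' processing notes also name Partek, whose values were not used here. Names and positions (hg19) are those of the files. The 75th percentile of the intensity was 450.0 to 872.7 per array, 21280 to 22772 probes were well above background, and 0 spots were saturated. Control spots and 296 to 387 outlier-flagged spots per array were left out.

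Deposited intensities were log2-transformed and the log2 of the 75th percentile was subtracted array by array, spots of a probe were averaged, and the lines were compared with limma 3.58.1 (lmFit, eBayes) in R 4.3.3 with Benjamini-Hochberg adjustment over the 23103 probes with a signal well above background on 3 or more of the 6 arrays. Calls required 2-fold and an adjusted p under 0.05. Where a line had no array well above background, the fold is a lower bound, except for BMF, for which the fitted fold is given. A gene was represented by its brightest tested probe, by the mean over all arrays. Tested on simulated data for pLB against pLUM with 23103 probes, the fit recovered 52 of 100 probes changed by 1.5 and 87 of 100 changed by 2.5 on the log2 scale, with 4 false calls. Only these probes were changed in the simulation, a far smaller share than was called in the data. Since the adjustment depends on that share, the recovery does not measure the power of the reported comparison. Precision is limited by the number of arrays. Replicate numbers were not used as pairs.

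The members and gene lists were chosen with earlier results of these data known. All members are named with every probe, and from each list up to 5 called genes in each direction, with a few genes of known role given as values. Some listed genes are counted in their list but not reported here by name. Alternatives varied the background correction, scaling, filter, thresholds, test and block, and each array was left out once. The normexp correction added an offset of 50 to each intensity, which draws the values of dim probes together. Promoter windows came from RefSeq (GRCh38.p14). Gene names were checked against the same release, which matched 14399 of 17668 tested genes.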

Additional observations from a re-analysis of the deposited data

How the results depend on the processing

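No member probe or listed gene that was called under the settings reported here took the opposite direction under any of the alternatives run. Of 268 values of the 14 tested member probes over 20 settings, 263 kept their side of the threshold, and 1, BCL2 (a) with normexp (0.0044), lost its call. Another 4 became called. These were BAX (b) with spike-in scaling, and BAX (b), MCL1 and BCL2A1 (a) without a fold threshold. Member probes called higher numbered 5 and called lower 0 without each array in turn, with a replicate block (a paired fit) and with a slide block. The replicate numbers did not pair the samples, with correlations of deviations between same-numbered arrays of -0.27, -0.10 and -0.22, and the block changed no count by more than 1.5 times. Without a fold threshold 7 member probes and 5 member genes were called higher, and 1 probe and 1 gene, BCL2A1, lower.

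With normexp 4 member probes and 3000 of all probes were called higher, against 5 and 5050. Spike-in scaling (6 probes) shifted the median of all probes by 0.25 and normexp by -0.26. The share of called probes that were higher was 48.0%, 58.4% with spike-in scaling and 42.6% with normexp. Of the other BCL2 family, 1 gene was lower with normexp, with spike-in scaling and with a signal well above background required on all 6 arrays, and 1 to 2 without each array in turn. Of the IAP family, 2 genes were higher and 1 lower with spike-in scaling, 2 were higher without a fold threshold and 1 with the slide block, and 1 to 3 were lower without each array in turn. Without a fold threshold 4 genes of the apoptosome and caspases were lower and 5 regulators higher. Of the line markers 9 kept the labelled direction where a signal well above background was required on all 6 arrays, since markers without signal in a line were not tested. Signal over background limits BCL2 (a) in pLUM, BMF in pLB and the untested probes of BCL2 and BCL2A1.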
